A study of Mus musculus with 6 samples.

Results

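Nucleotide excision repair is described here through 30 genes chosen by their known roles in the pathway, from damage recognition to ligation, out of 29587 gene rows in a deposited RNA sequencing table. RNA came from apoptotic osteoblasts (apoOBs) of young and of old mice, in 3 libraries per group. Bone pieces were cultured, adherent cells were passaged until the submitters called them bone marrow mesenchymal stem cells, and these cells were turned towards bone-forming cells in osteogenic medium before ultraviolet light killed them. All 6 libraries thus came from irradiated cells, none from cells without irradiation, so no value here sets irradiated against unirradiated cells. The labels give the genotype of both groups as "none", and they give no age beyond young and old, no sex and no strain. Whether each library had its own animal or culture is not said, so p-values reflect only how far these 3 libraries of a group spread, possibly for technical reasons. All values are RPKM, reads scaled to gene length and library size. Levels can be set side by side between genes only roughly, since they depend on the deposited length of each gene.

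Nucleotide excision repair cuts out bulky, helix-distorting damage, and it is the main way in which mammalian cells remove the pyrimidine dimers that ultraviolet light makes. Damage is found either anywhere in the genome, by the XPC complex and the UV-DDB ubiquitin ligase, or where it stalls RNA polymerase, by the Cockayne syndrome proteins and UVSSA. Both routes lead to TFIIH, which opens the helix, to XPA and replication protein A, which check the lesion and hold the strands, to the nucleases that cut on either side of it, and to gap filling and ligation.

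The deposited table held all 30 genes, and 29 of them reached 1 RPKM in at least 3 libraries and were tested. In the comparison of old with young, none of the 29 passed an adjusted p under 0.05 in limma, a linear model fitted to all 12015 tested genes, where 1.57% of genes passed. With the gene length trend removed limma also called none, against 2.30% of all genes. None of the 29 reached an unadjusted p under 0.05, against 11.2% of all genes. The count test voom, run on reads recovered from the RPKM values, also called 0 of them, with 0 at an unadjusted p under 0.05, against 1.42% and 11.2% of all genes. The median log2 fold change of the members was -0.01 (14 positive, 15 negative), and that of all tested genes was 0.01. Leaving out young replicate 1, a library that differed from the other 5, moved this picture: 6 members then passed the test, against 32.6% of all genes, with Xpc, Cetn2, Ercc6 and Uvssa lower and Gtf2h5 and Ccnh higher in old.

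The libraries held 64881180 to 84535939 recovered reads. Across the 12015 genes, young replicate 1 correlated with the other young libraries at Pearson's r of 0.949 and 0.962, against 0.996 between these other young libraries and 0.995 to 0.997 among the old ones. Mitochondrial genes held 1.03% of its reads, against 1.58 to 2.25% in the other 5. Osteoblast genes were present in part. Col1a1, the main bone collagen, lay at 1062 to 1829 RPKM. The osteoblast transcription factors Runx2 and Sp7 lay at 3.67 to 5.66 and 4.88 to 9.02 RPKM. Alpl, Bglap and Phex of the osteoblast list stayed under 1 RPKM in every library. Ibsp lay at 18.7 to 33.5 RPKM, Pth1r at 9.30 to 15.0 RPKM and Dmp1 at 1.00 to 2.46 RPKM, named after their values were seen. Sp7 was lower in old, with a difference of -0.68 ± 0.09 on the log2 scale (SE; adjusted p in limma 0.0186), while Spp1, a bone matrix phosphoprotein named here after its values were seen, was higher at 1.36 ± 0.20 (limma adjusted p = 0.0307). These were the 2 genes called among 10 tested of the osteoblast list, against 1.57% of all genes. Without young replicate 1, limma called 2 of the 10 higher and 7 lower, against 13.2% and 19.4% of all genes. The part of these genes in the members' values was not tested. Some defining markers of other cells were at or near 0 RPKM in every library. Examples were Ptprc and Adgre1 of leukocytes and macrophages, Cdh5 of endothelium, Adipoq and Plin1 of fat cells, and Acp5 and Calcr of osteoclasts. Other markers were expressed: Col2a1 and Sox9 of cartilage lay at 21.5 to 53.6 and 12.7 to 19.7 RPKM. Lyz2 of macrophages lay at 6.53 to 8.53 RPKM. The summed RPKM of the macrophage list, mostly Lyz2, was 8.28 to 9.59 in young and 9.25 to 10.6 in old libraries. That of the osteoclast list, mostly Ctsk, was 29.4 to 36.8 in young and 27.4 to 29.6 in old. That of the chondrocyte list, mostly Col2a1 and Sox9, was 34.4 to 73.3 in young and 53.2 to 56.8 in old. That of the marrow stromal list, mostly Cxcl12, Pdgfrb and Vcam1, was 53.1 to 54.5 in young and 54.9 to 60.1 in old. The part of these markers in the members' values was not tested. In such bulk RNA, fewer cells with a transcript and less of it per cell cannot be told apart.

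The members differed in level far more than the groups did. Ddb1 was highest, with a mean of 128 RPKM over the 6 libraries, followed by Rad23b at 38.2, Cetn2 at 36.6 and Rpa3 at 36.3 RPKM. The lowest were Ercc8 at 0.467, Ercc6 at 1.76 and Cdk7 at 2.03 RPKM. This order depends on gene length: Cdk7, of 7595 bases, had 962 to 1389 recovered reads. Ddb2, of 2736 bases, had 462 to 588 recovered reads at a mean of 2.43 RPKM. The summed RPKM of the 30 genes was 479.0, 496.0 and 487.4 in young and 489.9, 478.0 and 493.3 in old replicates 1, 2 and 3, so the groups overlapped.

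**Figure D1:**
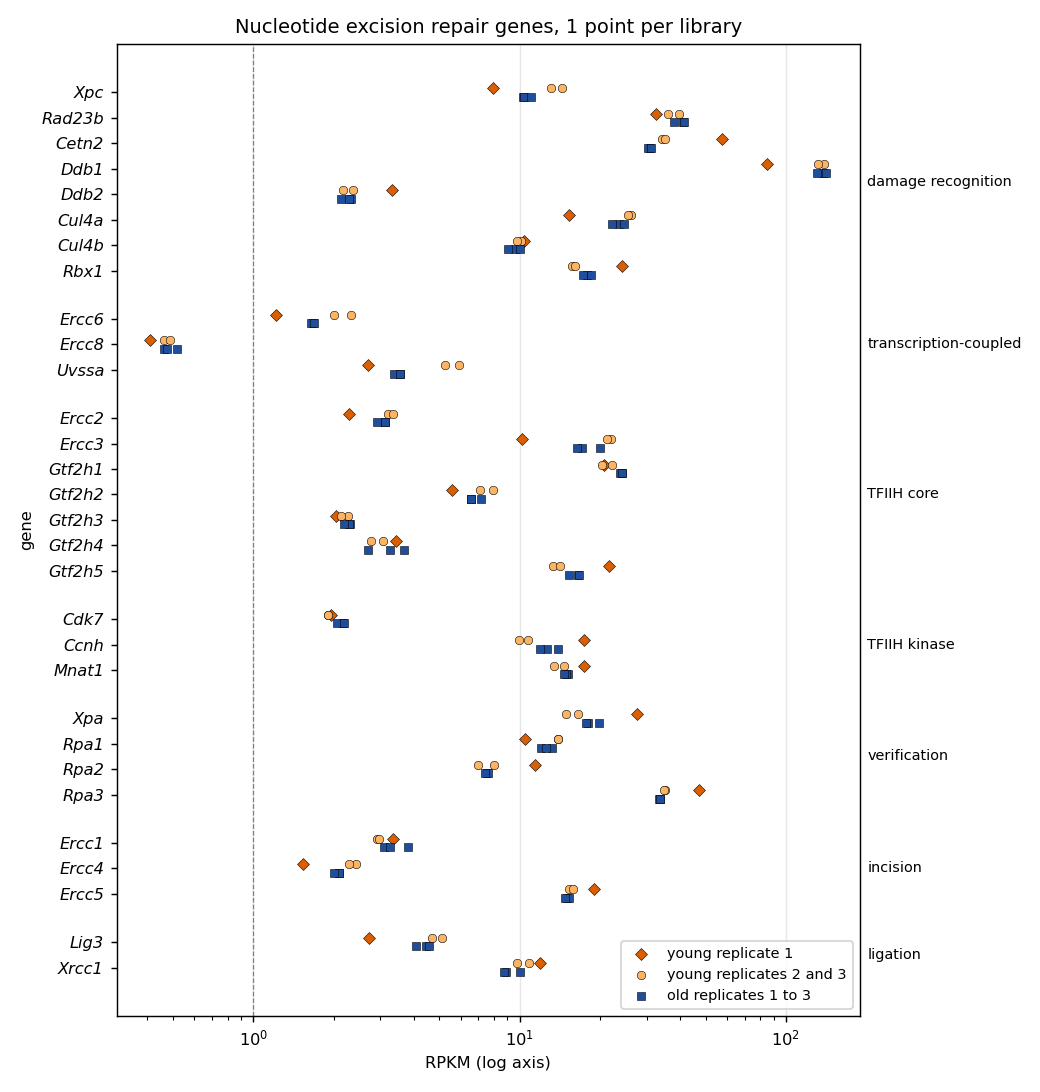
RPKM of each of the 30 genes (x axis, log scale) in every library, by role, with young replicate 1 as diamonds, the other young libraries as light circles and the old libraries as squares; the dashed line is 1 RPKM. Young replicate 1 lies apart from the other libraries in most rows, as in Cetn2 (57.8 RPKM against 30.4 to 35.1) and Ercc3 (10.2 against 16.4 to 22.1).

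Start-site sequence is shown for the 4 members with a promoter window among the 6 that passed limma's test without young replicate 1. Other members, such as Rbx1, also had groups without overlap there, and Ercc6 and Cetn2 were not called in every fit without that library. The sequences are from RefSeq on GRCm38.p6 and run 5′ to 3′ on the gene's strand, trimmed to bases outside the exons of the deposited table. Capitals mark matches on either strand to the GC box that Sp-family factors can bind, with letters GGGCGG; the box recognised by the trimeric factor NF-Y, with letters CCAAT; the E box recognised by USF and MYC family factors, with letters CACGTG; and the motif of the factor NRF1. They cover chr5:33378446-33378548 (+) for Uvssa, chr14:32513271-32513520 (+) for Ercc6, chrX:72918412-72918556 (-) for Cetn2 and chr17:6079742-6079785 (+) for Gtf2h5.
Uvssa: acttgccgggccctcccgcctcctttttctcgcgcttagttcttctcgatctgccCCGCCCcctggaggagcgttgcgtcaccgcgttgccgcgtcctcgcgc
Ercc6: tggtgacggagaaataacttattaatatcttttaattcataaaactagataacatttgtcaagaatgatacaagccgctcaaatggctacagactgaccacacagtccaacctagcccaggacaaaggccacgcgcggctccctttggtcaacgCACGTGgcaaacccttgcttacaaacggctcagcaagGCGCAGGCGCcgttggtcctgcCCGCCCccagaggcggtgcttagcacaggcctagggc
Cetn2: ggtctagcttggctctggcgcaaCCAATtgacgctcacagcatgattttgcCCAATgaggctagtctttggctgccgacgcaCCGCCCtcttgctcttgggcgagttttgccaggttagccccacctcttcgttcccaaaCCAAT
Gtf2h5: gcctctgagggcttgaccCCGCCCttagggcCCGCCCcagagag

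A GC box stood in each of these 4 stretches. Among the 26 members with a window, 16 held a GC box in the 250 bases upstream, against 32.9% of 27025 promoters and 61.6% of the 7805 promoters of tested genes. A CCAAT box stood in 14 of the 26, against 34.5% and 37.2%, and an E box in 7, against 6.05% and 8.79%. The NRF1 motif stood in 5 (Rad23b, Uvssa, Ercc2, Ercc6 and Ercc4), against 3.86% and 9.32%. The TATA box (TATAAA) and the CRE (TGACGTCA) were in none of the 26 windows, against 13.0% and 1.62% of all promoters and 5.78% and 2.82% of those of tested genes. The ETS motif (CCGGAAG) stood in 4 members, against 7.05% of all promoters and 15.5% of those of tested genes, and the AP-1 motif (TGANTCA) in 2, against 6.87% and 3.84%. Median GC content was 57.8% in the members, 60.4% in tested genes and 52.0% in all promoters. Such matches describe the letters only; motifs of overlapping letters were counted each on its own.

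Damage recognition in the whole genome was represented by 8 genes, of which none passed the test over all 6 libraries and 2 passed in limma without young replicate 1, both lower in old, against 32.6% of all genes called and 19.4% called lower. In other fits without that library Rbx1 (median-of-ratios scaling, limma adjusted p = 0.0310) and Rad23b (length trend removed, limma adjusted p = 0.0318) passed as higher. Xpc, which encodes the protein that binds the distorted helix (chromosome 6, 91489305 to 91515888 on mm10, minus strand), was at 7.95, 14.5 and 13.1 RPKM in young replicates 1, 2 and 3 and at 10.3, 10.4 and 11.0 RPKM in old replicates 1, 2 and 3. The old libraries lay between young replicate 1 and the other young libraries. Its log2 fold change was -0.11 ± 0.21 (SE, limma adjusted p = 0.967) over all 6 libraries and -0.36 ± 0.06 (adjusted p = 0.00971) without young replicate 1. Cetn2, whose product centrin steadies XPC (chromosome X, 72913532 to 72918411, minus strand), was at 57.8, 34.3 and 35.1 RPKM in young and 30.8, 30.4 and 31.2 RPKM in old. Every old library lay below every young one. The log2 fold change of Cetn2 was -0.41 ± 0.21 (limma adjusted p = 0.586) with young replicate 1 and -0.17 ± 0.05 (adjusted p = 0.0357) without it. Under median-of-ratios scaling without that library its adjusted p in limma was 0.132.

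Rad23b, the other partner of XPC and a ubiquitin-binding protein, was at 32.4, 39.6 and 36.2 RPKM in young and 41.3, 38.1 and 41.4 RPKM in old. These groups overlapped, and the log2 fold change was 0.16 ± 0.10 (SE, limma adjusted p = 0.737). Ddb1, the adaptor of the CUL4 ligases, was at 85.1, 139 and 133 RPKM in young and 138, 131 and 142 RPKM in old. Only young replicate 1 stood apart there, and the log2 fold change went from 0.23 ± 0.20 (limma adjusted p = 0.838) to 0.01 ± 0.06 (adjusted p = 0.877) without it. Ddb2, the subunit of UV-DDB that touches the photolesion, was at 3.31, 2.18 and 2.37 RPKM in young and 2.13, 2.33 and 2.29 RPKM in old. The log2 fold change of Ddb2 was -0.14 ± 0.13 (limma adjusted p = 0.866), and -0.01 ± 0.06 without young replicate 1. Exons of Ddb2 share 652 bases, 23.8% of its length, with Acp2 on the other strand, so its level is uncertain if counting ignored strand.

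The ligase that DDB1 and DDB2 guide is built on a cullin and a RING subunit. Cul4a, a cullin scaffold, was at 15.3, 26.3 and 25.5 RPKM in young and 23.6, 22.2 and 24.7 RPKM in old. Cul4b, its close paralogue, was at 10.4, 10.1 and 9.80 RPKM in young and 9.62, 9.08 and 10.1 RPKM in old. Both overlapped between groups, with log2 fold changes of 0.10 ± 0.21 for Cul4a and -0.07 ± 0.08 for Cul4b (SE, limma adjusted p = 0.974 and 0.924). Rbx1, the RING subunit, was at 24.2, 15.8 and 16.1 RPKM in young and 17.9, 18.5 and 17.4 RPKM in old, so that the old libraries again lay between young replicate 1 and the other young ones. For Rbx1 the log2 fold change was -0.03 ± 0.17 (limma adjusted p = 0.990), and 0.16 ± 0.05 (adjusted p = 0.0542) without young replicate 1.

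Transcription-coupled repair was represented by Ercc6, Ercc8 and Uvssa, which as a role had the lowest summed level. Uvssa, whose product joins the stalled polymerase and brings in TFIIH (chromosome 5, 33378549 to 33419754, plus strand), was at 2.69, 5.93 and 5.22 RPKM in young and 3.55, 3.38 and 3.55 RPKM in old. Young replicates 2 and 3 lay above all old libraries and young replicate 1 below them. The log2 fold change of Uvssa was -0.27 ± 0.24 (SE, limma adjusted p = 0.851) over all 6 libraries. Without young replicate 1 it was -0.55 ± 0.07 (limma adjusted p = 0.00343), the largest change and smallest adjusted p among the members in that fit, and the ratio of old to young mean RPKM was 0.626. Ercc6, which encodes the Cockayne syndrome B translocase (chromosome 14, 32513521 to 32580989, plus strand), was at 1.22, 2.32 and 2.00 RPKM in young and 1.67, 1.65 and 1.68 RPKM in old. The 3 old values were nearly equal and lay inside the young range. Its log2 fold change was -0.07 ± 0.16 (limma adjusted p = 0.974), and -0.24 ± 0.07 (adjusted p = 0.0360) without young replicate 1. That last call was lost with the gene length trend removed (-0.09, limma adjusted p = 0.255) and with median-of-ratios scaling (-0.20, adjusted p = 0.0557).

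Ercc8, which encodes the Cockayne syndrome A protein of a CUL4 ligase, was at 0.411, 0.461 and 0.485 RPKM in young and 0.514, 0.460 and 0.472 RPKM in old. It stayed under the level needed for testing in every library, although 204 to 333 reads were recovered for it. With no filter on low values its log2 fold change was 0.03 ± 0.05 (SE, limma adjusted p = 0.907).

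The core of TFIIH was represented by 7 genes, and none passed the test over all 6 libraries. Gtf2h1, the subunit p62 that XPC and UVSSA contact (chromosome 7, 46796103 to 46823800, plus strand), was at 20.7, 22.2 and 20.3 RPKM in young and 24.2, 23.8 and 24.1 RPKM in old. The groups did not overlap, and young replicate 1 lay among the young libraries. The difference was 0.18 ± 0.08 on the log2 scale (SE; adjusted p in limma 0.496), with the smallest unadjusted p of all members, 0.0638, and without young replicate 1 it was 0.17 ± 0.06 (limma adjusted p = 0.0560). Gtf2h5, the small subunit that stabilises TFIIH and is mutated in a form of trichothiodystrophy (chromosome 17, 6079786 to 6086517, plus strand), was at 21.7, 13.3 and 14.2 RPKM in young and 16.6, 16.7 and 15.4 RPKM in old. Young replicate 1 lay above the old libraries and the other young libraries below them. The log2 fold change of Gtf2h5 was 0.02 ± 0.19 (limma adjusted p = 0.995), and 0.22 ± 0.06 (adjusted p = 0.0317) without young replicate 1.

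Ercc3, the XPB translocase that opens the helix, was at 10.2, 22.1 and 21.2 RPKM in young and 17.2, 16.4 and 20.1 RPKM in old. It had the widest interval of all members, -0.63 to 0.77 around a log2 fold change of 0.07 (95%, limma adjusted p = 0.987), and without young replicate 1 the log2 fold change was -0.27 ± 0.09 (SE, limma adjusted p = 0.0551). Ercc2, the XPD helicase that scans for the lesion, was at 2.28, 3.19 and 3.35 RPKM in young and 3.11, 3.11 and 2.92 RPKM in old, with a log2 fold change of 0.05 ± 0.13 (limma adjusted p = 0.978). Exons of Ercc2 share 744 bases with Klc3 and 1025 bases with Gm26852 on the other strand, so its level is uncertain. Gtf2h2, the subunit p44 that stimulates XPD, was at 5.56, 7.93 and 7.11 RPKM in young and 6.57, 6.59 and 7.14 RPKM in old. Gtf2h3, the subunit p34 beside it, was at 2.04, 2.26 and 2.13 RPKM in young and 2.31, 2.29 and 2.18 RPKM in old. Gtf2h4, the subunit p52 that regulates XPB, was at 3.44, 2.76 and 3.07 RPKM in young and 3.25, 3.68 and 2.70 RPKM in old. All of these overlapped between groups, with log2 fold changes of -0.01 for Gtf2h2, 0.05 for Gtf2h3 and 0.04 for Gtf2h4 (limma adjusted p of 0.998, 0.949 and 0.985).

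The kinase module of TFIIH, which phosphorylates RNA polymerase, was represented by 3 genes. Ccnh, the cyclin of the module (chromosome 13, 85189408 to 85223469, plus strand), was at 17.5, 9.94 and 10.8 RPKM in young and 12.7, 13.9 and 11.9 RPKM in old. As in Gtf2h5, the old libraries lay between young replicate 1 and the other young libraries. For Ccnh the log2 fold change was 0.05 ± 0.21 (SE, limma adjusted p = 0.988), and 0.28 ± 0.07 (adjusted p = 0.0313) without young replicate 1. Cdk7, the kinase (chromosome 13, 100697027 to 100730942, minus strand), was at 1.95, 1.91 and 1.91 RPKM in young and 2.16, 2.05 and 2.20 RPKM in old. The groups did not overlap, young replicate 1 did not stand apart, and the interval was the narrowest of all members. Its log2 fold change was 0.10 ± 0.07 (limma adjusted p = 0.782), a small difference that did not pass the test. Mnat1, the assembly factor, was at 17.5, 13.4 and 14.7 RPKM in young and 15.2, 14.9 and 14.7 RPKM in old, with a log2 fold change of -0.02 ± 0.11 (limma adjusted p = 0.991).

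Lesion verification was represented by Xpa and the 3 subunits of replication protein A, none of which passed limma's test on log2(RPKM + 1) with or without young replicate 1. Xpa, the scaffold that checks the lesion, was at 27.5, 14.9 and 16.6 RPKM in young and 18.1, 19.9 and 17.7 RPKM in old. The log2 fold change of Xpa was -0.03 ± 0.22 (SE, limma adjusted p = 0.992), and 0.22 ± 0.07 (adjusted p = 0.0555) without young replicate 1. Without that library Xpa passed in voom (0.23, adjusted p = 0.0423) and with median-of-ratios scaling in limma (0.28, adjusted p = 0.0415), higher in old in both. Rpa1, the large subunit that binds single-stranded DNA, was at 10.5, 14.0 and 13.9 RPKM in young and 13.2, 12.0 and 12.5 RPKM in old. Both genes overlapped between groups. Rpa2, the middle subunit that damage kinases phosphorylate, was at 11.4, 6.97 and 8.02 RPKM in young and 7.54, 7.60 and 7.43 RPKM in old. Rpa3, the small subunit, was at 47.2, 35.3 and 34.8 RPKM in young and 33.7, 33.4 and 33.6 RPKM in old. In Rpa3 every old library lay below every young one, by little beside young replicates 2 and 3. The log2 fold changes were -0.01 ± 0.13 for Rpa1, -0.18 ± 0.17 for Rpa2 and -0.20 ± 0.13 for Rpa3 (limma adjusted p of 0.993, 0.879 and 0.751).

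Incision was represented by 3 nuclease genes, and none passed limma's test with or without young replicate 1. With library weights Ercc1 passed (0.21, limma adjusted p = 0.0419). Ercc4, the XPF nuclease that cuts on the 5′ side, was at 1.54, 2.42 and 2.29 RPKM in young and 2.10, 2.10 and 2.01 RPKM in old. Ercc1, its partner in DNA binding, was at 3.35, 2.91 and 2.95 RPKM in young and 3.81, 3.09 and 3.27 RPKM in old. Both overlapped between groups, with log2 fold changes of 0.00 ± 0.13 for Ercc4 and 0.11 ± 0.10 for Ercc1 (SE, limma adjusted p = 0.999 and 0.873). Exons of Ercc1 share 106 bases with Cd3eap on the other strand, a gene at a mean of 37.3 RPKM in young and 40.9 RPKM in old libraries. Ercc5, the XPG nuclease that cuts on the 3′ side, was at 19.1, 15.4 and 15.9 RPKM in young and 15.0, 15.3 and 14.8 RPKM in old. Its groups did not overlap, with the lowest young and highest old library close together, and its log2 fold change was -0.14 ± 0.10 (limma adjusted p = 0.792).

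Of the ligation genes, Lig3, the DNA ligase that can seal the repaired strand, was at 2.71, 5.10 and 4.69 RPKM in young and 4.43, 4.07 and 4.56 RPKM in old. Exons of Lig3 share 1826 bases, 25.1% of its length, with Rffl on the other strand. Shorter shared stretches, of 12 to 214 bases, were found in Cdk7, Ccnh, Xpa and Rpa1. Xrcc1, the scaffold that carries that ligase, was at 11.9, 9.75 and 10.8 RPKM in young and 8.92, 10.1 and 8.77 RPKM in old. The groups overlapped in both, and the log2 fold changes were 0.08 ± 0.20 for Lig3 and -0.20 ± 0.11 for Xrcc1 (SE, limma adjusted p = 0.975 and 0.614). Xrcc1 passed as lower in old with library weights (-0.21, limma adjusted p = 0.0193), a fit that called 42.2% of all genes.

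The groups did not overlap in 5 of the 29 tested members, or 17.2%, against 20.8% of all tested genes. Gtf2h1 and Cdk7 were the 2 that were higher in old, and Cetn2, Rpa3 and Ercc5 the 3 that were lower, against 10.6% and 10.2% of all genes. With young replicate 1 in the fit, the 95% intervals of all 29 log2 fold changes lay within 1 of 0 in either direction, and 18 lay within 0.5. The margin of these intervals on either side ranged from 0.17 in Cdk7 to 0.70 in Ercc3, with a median of 0.32. Without young replicate 1 the margins ranged from 0.11 in Rpa3 to 0.25 in Gtf2h4, with a median of 0.14, and 27 of the intervals lay within 0.5 of 0. These values are on the log2(RPKM + 1) scale, which understates those of low genes such as Ercc6 and Cdk7.

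**Figure D2:**
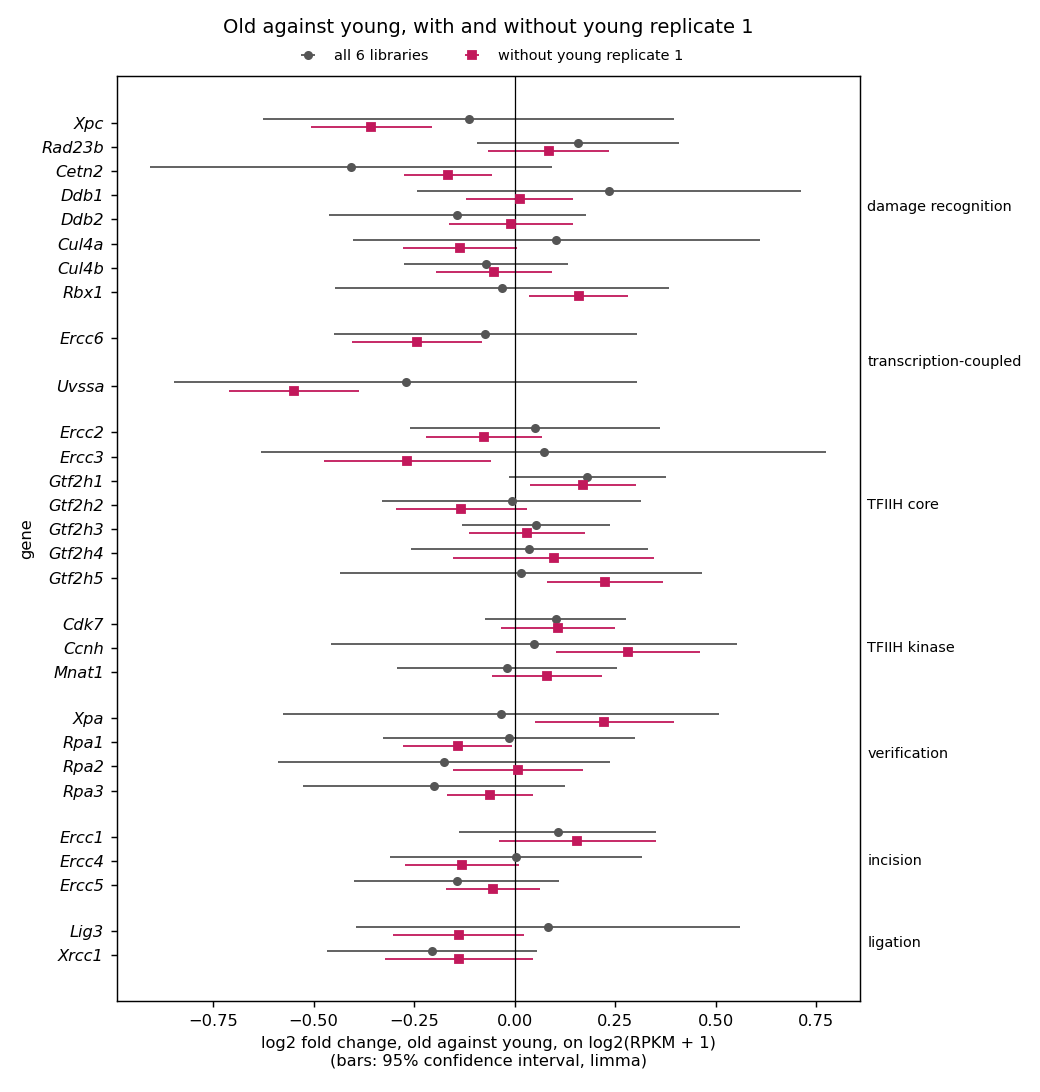
Log2 fold change of each tested gene, old against young (x axis), with its 95% confidence interval from limma, over all 6 libraries (circles) and without young replicate 1 (squares), by role. All intervals over 6 libraries include 0, and those without young replicate 1 are narrower, with Uvssa farthest from 0 at -0.55.

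Young replicate 1 was the highest or the lowest of the 6 libraries in 25 of the 29 tested members, against 77.0% of all tested genes. It was highest in 12 members and lowest in 13, against 28.8% and 48.2% of all genes. Only Gtf2h1, Gtf2h4, Cdk7 and Ercc1 had it inside the range of the others. The split followed gene length: the 12 genes with this library highest, among them Cetn2, Xpa, Rpa3 and Rbx1, had a median length of 3049 bases (1136 to 5864), and the 13 with it lowest, among them Uvssa, Ercc6, Xpc and Lig3, a median of 5733 bases (2835 to 8666). The difference of young replicate 1 from the mean of the other young libraries, on log2(RPKM + 1), had a median of 0.65 in the 4 members under 2000 bases and of -0.51 in the 7 members of 6000 bases or more. In all tested genes the same medians were 0.16 and -0.44. Across the 29 members this difference correlated with log10 length at Pearson's r of -0.61 and Spearman's rho of -0.61, and across 12015 genes at -0.21 and -0.35. Old libraries also departed from the rest of their group with length. Across all tested genes, Spearman's rho was -0.01, -0.21 and 0.24 for old replicates 1, 2 and 3. Genes are not independent replicates and all points of each such correlation share a library, so these are descriptions only. Ercc3, short at 2835 bases, went against the trend of young replicate 1, with 10.2 RPKM there and 21.2 and 22.1 RPKM in the other young libraries. Among longer members, Mnat1, Ercc5 and Xrcc1, of 5385 to 5864 bases, also went against it, with differences of 0.30, 0.27 and 0.20. The mitochondrial share was lowest in young replicate 1, and it also differed between the other young libraries and the old ones. The part of gene length or of this share in the members' values was not tested.

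**Figure D3:**
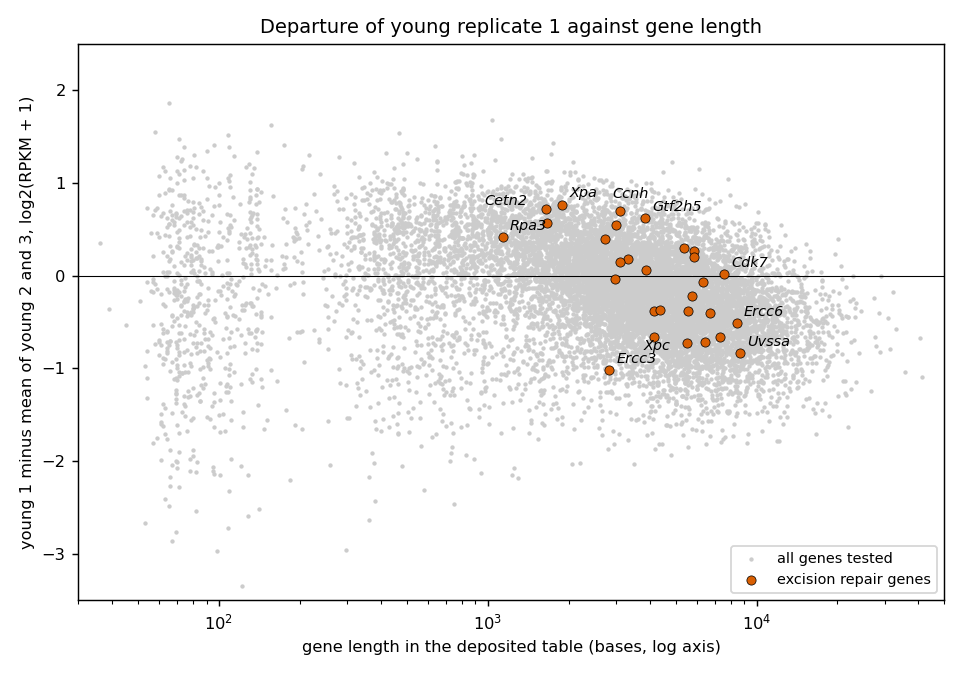
Difference of young replicate 1 from the mean of young replicates 2 and 3 on log2(RPKM + 1) (y axis) against gene length in the deposited table (x axis, log scale), for the 12015 tested genes in grey and the 29 tested excision repair genes in orange. Short members such as Cetn2, Xpa and Rpa3 lie above 0 and long ones such as Uvssa and Ercc6 below it. Exceptions include Ercc3 at 2835 bases, below 0, and Mnat1, Ercc5 and Xrcc1 at 5385 to 5864 bases, above 0.

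The spread within groups showed the same library. The median coefficient of variation of RPKM over the members was 22.8% in the 3 young libraries, 4.38% in young replicates 2 and 3 and 4.12% in the 3 old libraries. The corresponding medians over all tested genes were 20.3%, 5.52% and 5.79%.

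Without young replicate 1, limma called 6 of the 29 members, or 20.7%, against 32.6% of all tested genes. The members lower in old were Xpc, Cetn2, Ercc6 and Uvssa, 13.8% against 19.4% of all genes, and those higher were Gtf2h5 and Ccnh, 6.90% against 13.2%. The share of members called was thus below that of all genes. The direction of all calls taken over the table depended on scaling: 40.6% of called genes were higher in old in this fit, 55.4% with median-of-ratios scaling and 55.3% with the gene length trend removed. The members called without young replicate 1 numbered 7 of 29 with median-of-ratios scaling, against 29.7% of all genes, 8 with the length trend removed, against 28.6%, and 8 in voom, against 38.3%. Xpc, Uvssa, Gtf2h5 and Ccnh were among them in each of these fits. Their ratios of old mean to the mean of young replicates 2 and 3 were 0.765 for Xpc, 0.626 for Uvssa, 1.18 for Gtf2h5 and 1.24 for Ccnh. At an unadjusted p under 0.05, 11 of the 29 passed in limma without that library, or 37.9%, against 45.9% of all genes. Keeping all 6 libraries but weighting each by its spread called 12 of the 29, against 42.2% of all genes. Rbx1, Ercc3, Xpa and Gtf2h1 had adjusted p between 0.0542 and 0.0560 in limma without that library, and each passed in at least 1 of the other fits without it. Median-of-ratios scaling added Rbx1, Gtf2h1 and Xpa, all higher in old (limma adjusted p = 0.0310, 0.0221 and 0.0415). Removal of the length trend added Rad23b, Gtf2h1 and Cdk7, all higher (limma adjusted p = 0.0318, 0.0388 and 0.0205). Voom added Ercc3, lower, and Xpa, higher (adjusted p = 0.0268 and 0.0423). These calls rest on 2 young libraries and on leaving out a library after its values were known to differ.

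Other excision repair genes, a list of 29 with further recognition, gap-filling and ligation factors, showed 0 calls over the 6 libraries, 1 at an unadjusted p under 0.05 and a median log2 fold change of -0.00, against 1.57% called and a median of 0.01 over all genes. Voom also called 0 of them, with 1 at an unadjusted p under 0.05. Pold3, a subunit of the polymerase that fills the gap, was at 6.70, 7.60 and 7.58 RPKM in young and 6.15, 6.03 and 6.07 RPKM in old, a difference of -0.23 ± 0.09 on the log2 scale (SE; adjusted p in limma 0.404). Pold4, another subunit of that polymerase, was at 11.7, 9.77 and 10.2 RPKM in young and 12.9, 12.0 and 12.5 RPKM in old, with 0.22 ± 0.10 (limma adjusted p = 0.494). The groups of both genes did not overlap, in opposite directions. Without young replicate 1, 3 of the 29 were called higher, against 13.2% of all genes, and 5 lower, against 19.4%, with Pold4 at 0.29 (limma adjusted p = 0.0124) and Pold3 at -0.28 (adjusted p = 0.0111). Among the others, named after their values were seen, Lig1, Pole, Usp45 and Parp1 were lower. The COP9 signalosome, which removes NEDD8 from the CUL4 ligases, had 0 of 9 genes called, against 1.57% of all genes, 0 at an unadjusted p under 0.05, the same counts in voom and a median of 0.05; Gps1 and Cops6 had the smallest p, with limma adjusted p of 0.711 and 0.719.

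Other DNA repair pathways also had 0 calls over the 6 libraries, in limma and in voom. Base excision repair, which removes small base lesions, had 0 of 16 genes called, against 1.57% of all genes, 3 at an unadjusted p under 0.05, against 11.2%, with the same counts in voom, and 8 of 16 whose groups did not overlap, 4 in each direction, against 20.8% of all genes. Nthl1, a glycosylase for oxidised pyrimidines, was at 20.5, 15.3 and 17.1 RPKM in young and 22.3, 24.8 and 22.6 RPKM in old, a difference of 0.39 ± 0.12 on the log2 scale (SE; adjusted p in limma 0.302). Smug1, a uracil glycosylase, was at 1.22, 1.18 and 1.13 RPKM in young and 0.966, 0.808 and 0.861 RPKM in old, with -0.21 ± 0.07 (limma adjusted p = 0.314); it entered the test through the young libraries alone, which set its direction. With young replicate 1 left out, 2 of the 16 were called higher and 3 lower, against 13.2% and 19.4% of all genes. Nthl1, at 0.49 (limma adjusted p = 0.00548), and Apex1 were higher. Neil3, at -0.55 (limma adjusted p = 0.00219), Parp2 and Mbd4 were lower; all but Nthl1 are named after their values were seen.

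Translesion synthesis, which copies past lesions that repair has not removed, had 0 of 7 genes called, against 1.57% of all genes, and 2 at an unadjusted p under 0.05, against 11.2%, with the same counts in voom. Polh, the polymerase that copies accurately past ultraviolet dimers, was at 6.32, 6.21 and 5.83 RPKM in young and 4.83, 4.94 and 4.69 RPKM in old. Primpol, which restarts synthesis beyond a lesion, was at 2.07, 1.86 and 1.89 RPKM in young and 1.51, 1.33 and 1.27 RPKM in old. In both genes every old library lay below every young one, and young replicate 1 lay close to the other young libraries. Their log2 fold changes were -0.29 ± 0.08 for Polh and -0.31 ± 0.08 for Primpol (SE, limma adjusted p = 0.226 and 0.184), and without young replicate 1 both passed, at -0.27 and -0.28 (limma adjusted p = 0.0171 and 0.0255). The third gene called there, against 32.6% of all genes, was Rev1 at -0.28 (limma adjusted p = 0.0459), named after its values were seen. Mismatch repair had 0 of 7 genes called, against 1.57% of all genes, with 0 at an unadjusted p under 0.05 in limma and 1 in voom, against 11.2% in both; Pms1 had the smallest p, with a log2 difference of -0.16 (limma adjusted p = 0.516).

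The p53 targets, genes that the damage-activated factor p53 switches on, had positive log2 fold changes in 12 of 15 tested genes over all 6 libraries and in 9 of 15 without young replicate 1. Fas, the death receptor, was the 1 gene called in limma, against 1.57% of all genes, 7 of the 15 had an unadjusted p under 0.05, against 11.2%, and the median log2 fold change was 0.28. With young replicate 1 left out, limma called 7 higher and 1 lower, against 13.2% and 19.4% of all genes, and the 1 lower was Sesn1 (-0.40, adjusted p = 0.00641), named after its values were seen. The groups did not overlap in 7 of the 15, all with old higher, against 10.6% of all genes in that direction. Plk3, 1 of these 7, was at 0.499, 1.12 and 0.986 RPKM in young and 1.63, 1.63 and 1.42 RPKM in old. It would not have entered the test without the old libraries, which favours that direction. Plk3, named after its values were seen, is also in the counts above by sign, by unadjusted p and by call without young replicate 1. Fas was at 6.56, 5.41 and 5.57 RPKM in young and 9.64, 10.0 and 11.2 RPKM in old, and differed by 0.72 ± 0.11 on the log2 scale (SE; adjusted p in limma 0.0335). The difference between the p53 targets and the excision repair genes was not tested.

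**Figure D4:**
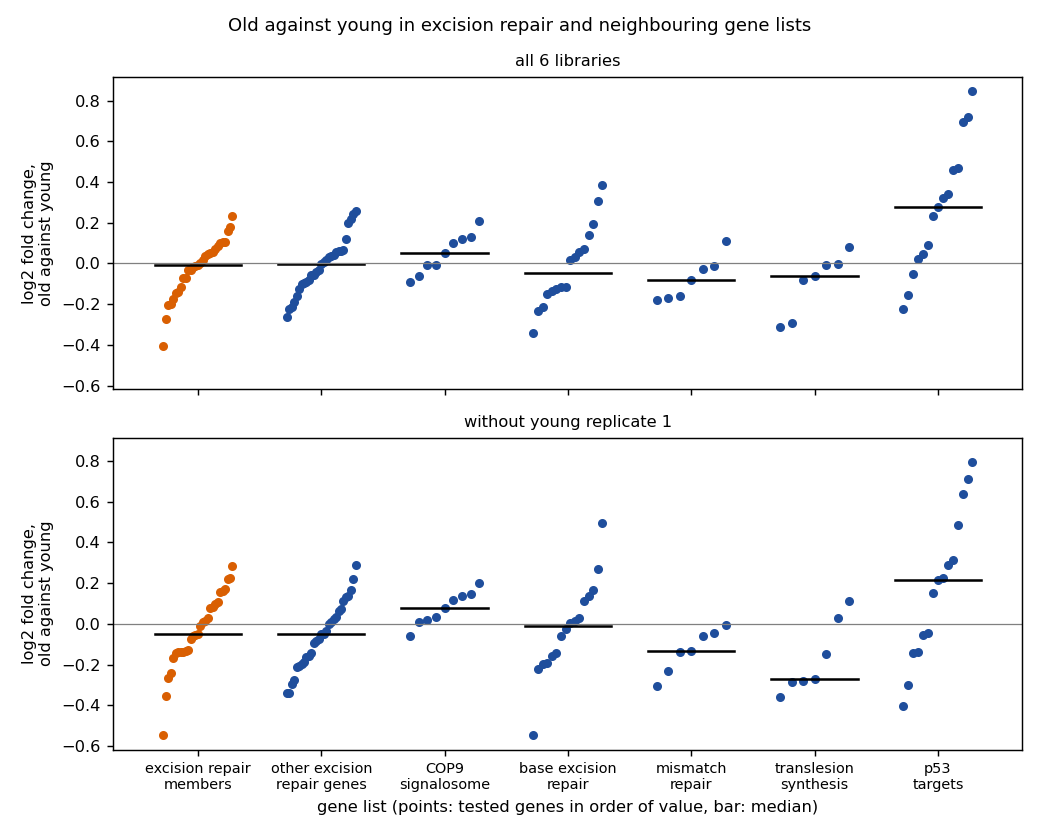
Log2 fold change, old against young (y axis), of each tested gene in the excision repair members and 6 other lists, sorted within each list, with the median as a bar, over all 6 libraries (top) and without young replicate 1 (bottom). The members' median lies at -0.01 and -0.05, and that of the p53 targets at 0.28 and 0.22.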

How the data were processed

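RNA of 6 libraries, 3 young and 3 old, was analysed from one table of RPKM that the authors deposited, with exon positions on mm10. Per the submitters' processing notes, fastp, STAR, HTSeq and edgeR were used; versions, parameters, annotation and strand setting were not given in the sources used here. RPKM times length gave whole reads for 100.0% of values, within 0.01. Of the genes with 1 to 5 reads, 77.5 to 79.3% had an even number, so reads are not independent molecules and depth overstates precision. In a gene of 1 kilobase, 3 reads, a floor for counting error only, equal 0.0355 to 0.0462 RPKM.

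Log2(RPKM + 1) entered a limma model (version 3.58.1, R 4.3.3) with 1 term, the group, and variances moderated towards a trend on mean level, over the 12015 genes with at least 1 RPKM in at least 3 libraries. Tests were two-sided, with Benjamini-Hochberg adjustment over all these genes and a threshold of 0.05. Leave-one-out fits kept the same genes. The scripts were tested on simulated data. Fits without young replicate 1 that also changed scaling, length trend or test, and the length trend removal, were chosen after seeing the data.

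The members and lists were chosen with earlier results of these data known. All 30 members are named. In each other repair list and the p53 targets, called genes (at most 4), or otherwise the 2 of smallest p, are named. Some genes of these lists are not reported here. Marker lists name defining markers near 0 and Col1a1, Runx2 and Sp7, and further marker genes were named after their values were seen. Marker genes without a row were not analysed here. Replicate numbers were not treated as pairs.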

Additional observations from a re-analysis of the deposited data

How the results depend on the processing

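Over all 6 libraries, no excision repair member was called under other pseudocounts, filters, scalings, the variance model without trend, voom, the replicate block or the length trend removal. Library weights, which give young replicate 1 less weight, called 6 members higher and 6 lower, with 2119 genes higher and 2957 lower in the whole table and a members' median of -0.055. Genes called over the table, 177 higher and 12 lower, became 99 higher with a mean RPKM of at least 5, 82 higher and 0 lower with the replicate block, and 37 lower with the length trend removed. Samples with the same number deviated together with r of -0.03, -0.44 and 0.33 for numbers 1, 2 and 3, so they were not taken as pairs. For unlike numbers r ranged from -0.42 (young 1 with old 3) to 0.43 (young 2 with old 3). Leaving out each library in turn gave 80 to 1589 genes higher, 0 to 2329 lower, 0 to 2 members higher and 0 to 4 lower; the upper values are those without young replicate 1, and without any other library 0 members were called. Without young replicate 1, removing the length trend gave 1538 genes lower and 5 members higher, and median-of-ratios scaling 5 members higher and 2 lower.

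Signs of log2 fold changes near 0 turned under library weights for Cul4a (-0.11), Rbx1 (0.14), Ercc2 (-0.0845), Ercc3 (-0.25), Mnat1 (0.0452), Xpa (0.15), Ercc4 (-0.11) and Lig3 (-0.0855), and under quantile normalization for Ercc4 (-0.0144). Of these, Rbx1 passed as higher and Ercc3 as lower under library weights (limma adjusted p = 0.0437 and 0.0379). Leaving out 1 library turned the sign of 16 members, with ranges of -0.36 to 0.0392 for Xpc, -0.14 to 0.23 for Cul4a, -0.13 to 0.16 for Rbx1, -0.24 to 0.0483 for Ercc6, -0.0767 to 0.13 for Ercc2, -0.27 to 0.26 for Ercc3, -0.13 to 0.0898 for Gtf2h2, -0.0429 to 0.13 for Gtf2h4, -0.11 to 0.22 for Gtf2h5, -0.0956 to 0.28 for Ccnh, -0.0991 to 0.0800 for Mnat1, -0.20 to 0.22 for Xpa, -0.14 to 0.0494 for Rpa1, -0.31 to 0.00729 for Rpa2, -0.13 to 0.0842 for Ercc4 and -0.14 to 0.22 for Lig3. The cause was not tested. Ercc8, under 1 RPKM, was the member too low to test. The median margin of the 95% intervals was 0.32 with young replicate 1 and 0.14 without it.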
